A study of Rattus norvegicus with 6 samples.

Results

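Heme turnover and iron handling were followed in the renal cortex of rats through 10 genes: the heme oxygenases Hmox1 and Hmox2, the biliverdin reductases Blvra and Blvrb, the heme synthesis genes Alas1 and Fech, the ferritin subunits Fth1 and Ftl1, the transferrin receptor Tfrc and the iron exporter Slc40a1 (ferroportin). They were found as the non-control array probes whose accession, without version, belongs to one of these symbols in RefSeq. Of the 41006 probes kept by the filters on outlier flags and dim spots, 24 belonged to the set. Each of the 10 genes had at least 1 of them, so no gene was lost, and the 10 are among 29938 genes tested. All 24 kept probes were well above background on all 6 arrays. Probes of these genes that the filters removed were not counted, and the probes of a gene below are its kept probes. The genes were selected on measured values of this same contrast, the log2 levels of the phenylbutazone and vehicle arrays, among them a high Hmox1 value on 1 vehicle array. The differences of the 10 genes between the groups are therefore given as a description, with no test.

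The animals were male Sprague-Dawley (Crl:CD(SD)) rats, bought at an age of 5 weeks and kept on a basal diet. In the vehicle group 3 rats received corn oil for 4 weeks, and in the phenylbutazone group 3 rats were given the anti-inflammatory drug phenylbutazone, a cyclooxygenase inhibitor, at 200 mg/kg/day over the same time. Each group is 3 separate biological samples, as the series design states, and total RNA of each rat's renal cortex was hybridised to its own array with a single dye, Cy3. The cortex is the outer kidney layer with the glomeruli and most proximal tubules.

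Heme is made in mitochondria and the cytosol in a chain that Alas1 opens and Fech closes by placing iron into protoporphyrin. Heme oxygenase opens the heme ring to biliverdin, carbon monoxide and free iron, and biliverdin reductase turns biliverdin into bilirubin. Free iron is stored in ferritin, a shell of heavy and light chains, or leaves the cell through ferroportin, while Tfrc brings transferrin-bound iron in. In the kidney, proximal tubule cells reabsorb filtered iron and heme proteins, and Hmox1 is known there as an inducible gene of the response to heme and oxidative stress.

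The promoters of Blvrb and Hmox2 are shown because these were the genes of the set whose arrays did not overlap between the groups at the probe of highest mean level, and that of Blvra because it is the other biliverdin reductase. They are the 250 bases before the start in the RefSeq table of the rat build GRCr8, which held 7 of the 10 genes (not Hmox1, Fth1 and Ftl1) with 8 start sites. Capitals mark matches to TGACNNNGC on either strand, the core of the antioxidant response element bound by NRF2 and BACH1.
Blvrb, chr1:91866008-91866257, plus strand: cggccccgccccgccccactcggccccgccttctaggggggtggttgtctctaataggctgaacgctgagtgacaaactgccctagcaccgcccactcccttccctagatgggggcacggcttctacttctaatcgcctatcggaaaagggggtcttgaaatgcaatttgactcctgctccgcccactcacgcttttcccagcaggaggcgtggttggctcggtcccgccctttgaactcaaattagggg
Hmox2, first start site, chr10:11337613-11337862, minus strand: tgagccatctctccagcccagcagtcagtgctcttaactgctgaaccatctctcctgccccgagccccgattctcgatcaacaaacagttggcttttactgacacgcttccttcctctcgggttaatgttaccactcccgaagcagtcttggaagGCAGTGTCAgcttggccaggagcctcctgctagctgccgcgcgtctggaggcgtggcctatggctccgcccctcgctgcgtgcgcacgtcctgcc
Blvra, chr3:134802660-134802909, plus strand: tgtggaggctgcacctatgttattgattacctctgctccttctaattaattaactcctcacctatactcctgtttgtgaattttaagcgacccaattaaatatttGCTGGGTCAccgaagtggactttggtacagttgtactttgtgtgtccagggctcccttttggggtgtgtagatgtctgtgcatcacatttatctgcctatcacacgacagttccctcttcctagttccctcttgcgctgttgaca
The match in Hmox2 lay 95 to 87 bases before the start and that in Blvra 145 to 137 bases before it, both on the opposite strand. The Blvrb window held no match, and neither did those of Alas1, Fech, Tfrc, Slc40a1 and the second Hmox2 start site. Over all 33469 promoters of the table, 10.1% held the motif in a window of this length. A match is only a description of the letters.

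Levels are log2 processed intensity minus the log2 75th percentile of the array, so that 0 is the 75th percentile, and differences are phenylbutazone minus vehicle on the same log2 scale with the standard error (SE) of the limma fit over all genes. Vehicle arrays 1 and 2 shared slide 1. Slide 2 held all phenylbutazone arrays together with vehicle array 3 and was scanned on another day. A within-slide difference therefore exists only for slide 2 and rests on vehicle 3 alone. Its SE takes the spread within groups from the 3 phenylbutazone arrays and holds none between vehicle rats. Of the 10 genes, 7 were higher and 3 lower in phenylbutazone, with a median difference of 0.14 against 0.015 over all 29938 genes. Over the 12155 genes with a symbol the median was 0.039. With limma and Benjamini-Hochberg adjustment at 0.05, 0 of the 10 were called, as were 0 of all genes (0%). At an unadjusted p under 0.05 there was 1 of the 10, with 12.2% of all genes. The groups did not overlap in 2 of the 10, both higher in phenylbutazone, where 21.5% of all genes did not overlap, 12.1% on the higher and 9.39% on the lower side. As the genes were selected on this contrast, nothing is read from these counts.

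**Figure D1:**
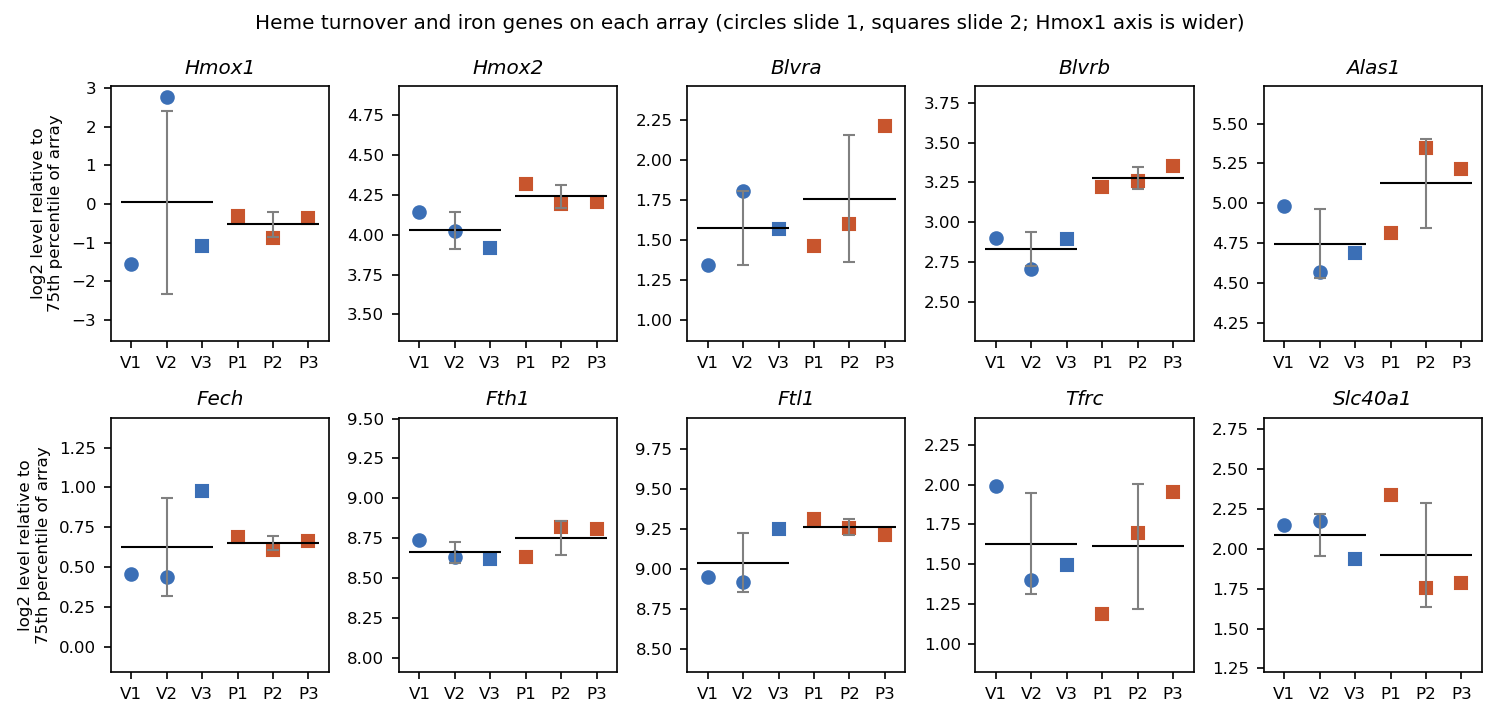
Level of each of the 10 genes (y axis, log2 relative to the array's 75th percentile) on the 3 vehicle (V, blue) and 3 phenylbutazone (P, orange) arrays, with circles for slide 1 and squares for slide 2; black lines are group means and grey bars the SD. Hmox1 stands at 2.76 on vehicle 2 and between -1.55 and -0.32 on the other arrays (its axis is wider), and only Hmox2 and Blvrb have groups that do not overlap.

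Hmox1, the inducible heme oxygenase, stood at -1.55, 2.76 and -1.09 on vehicle arrays 1, 2 and 3. On phenylbutazone arrays 1, 2 and 3 it stood at -0.32, -0.89 and -0.37. The vehicle 2 value was thus the highest of the 6, 8.45-fold above the next array and 19.8-fold above vehicle 1, while the 3 phenylbutazone values lay above both other vehicle values. The group difference was -0.57 ± 1.11 (SE, n = 3 per group). Without vehicle 2 it was 0.79 ± 0.24 and on slide 2 alone 0.56 ± 0.28, so the direction changed without that array.

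A single probe of Hmox1 passed the filters, so no other kept probe of the gene can be set beside the vehicle 2 value. Whether the filters removed a further Hmox1 probe was not examined. The median pixel signal of the spot was 6513 on vehicle 2 and 351 to 843 on the other arrays, and its local background was 37 there and 38 to 55 elsewhere. The spot carried no outlier flag on any array. Among 11498 genes with a symbol and well above background on all arrays, Hmox1 had the third largest gap between its highest array and the next, 3.08 log2 units. The larger gaps were those of Akr1b8 on phenylbutazone 1 (3.26) and Sptbn4 on phenylbutazone 2 (3.09). Next came Scgb1c1 on phenylbutazone 3 (3.05) and, at 2.60, Fxyd3 on vehicle 1. With a lower bound of 1 log2 unit above all other arrays, there were 15 such genes on vehicle 2 and between 7 and 15 on each of the other arrays.

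Of 57 other stress genes tested in 4 lists, 10 were highest on vehicle 2, against 3 to 14 on each of the other arrays, and their gaps to the next array were 0.030 to 0.25 log2 units. The widest was that of Jun, an immediate early gene, at 3.26 on vehicle 2 and 2.25 to 3.01 elsewhere. The 13 measured immediate early genes had a mean deviation of 0.10 on vehicle 2, within -0.20 to 0.26 on the other arrays. The 17 measured NRF2 targets, genes of the oxidative stress response to which Hmox1 also belongs, had a mean deviation from their 6-array mean of -0.10 on vehicle 2. It was -0.15 and -0.29 on vehicle 1 and 3 and 0.028 to 0.31 on the phenylbutazone arrays, so that vehicle 2 lay below all of the latter. Srxn1, the sulfiredoxin gene, was highest on vehicle 2 at 1.64, with 1.53 on vehicle 1. Nqo1, a quinone reductase gene, stood at -2.46 there, within the range of -2.85 to -1.95 of the other arrays. Bach1, which encodes a heme-sensing repressor of Hmox1, stood at -1.65 there, within -1.87 to -1.48. The 14 genes of metal and unfolded protein stress had a mean deviation of 0.014 there, within -0.11 to 0.16. The 13 measured heat shock genes had a mean deviation of 0.03 on vehicle 2, within the range of -0.12 to 0.12 of the other arrays.

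By its mean deviation the hepatocyte marker list was highest on the same array, with a mean deviation of 1.12 on vehicle 2 and -1.21 to 0.60 on the others. Of its 8 genes, 4 were well above background on all 6 arrays, and none of these 4 was highest on vehicle 2. Apob stood at -0.48 there and up to 0.68 elsewhere, Fgb at -0.42 and up to 0.92, and Ahsg at -1.01 and up to -0.56. The fourth, Cyp2e1, is given below. The high mean deviation thus came from the genes that were dim on some arrays. Alb, the albumin gene, stood at 0.27 on vehicle 2 and -5.62 to -1.56 elsewhere, and Ttr, the transthyretin gene, at -0.36 against -7.64 to -2.52; Alb was well above background on 5 of the 6 arrays and Ttr on 4. The summed level of the list, dominated by Cyp2e1 at 6.27 on vehicle 2 and 5.64 to 6.49 elsewhere, was 81.3 times the 75th percentile on vehicle 2, 92.1 and 88.3 on vehicle 1 and 3, and 52.9 to 85.4 on the phenylbutazone arrays, so the sum was not highest there. Macrophage markers, genes of the cells that clear heme and senescent red cells, summed to 85.6 on vehicle 2 and 82.9 to 112 on the other arrays, with Marco and Vsig4 well above background on 0 arrays and Cd163, the hemoglobin scavenger receptor, on at most 1. The part of these markers in the Hmox1 value was not tested.

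**Figure D2:**
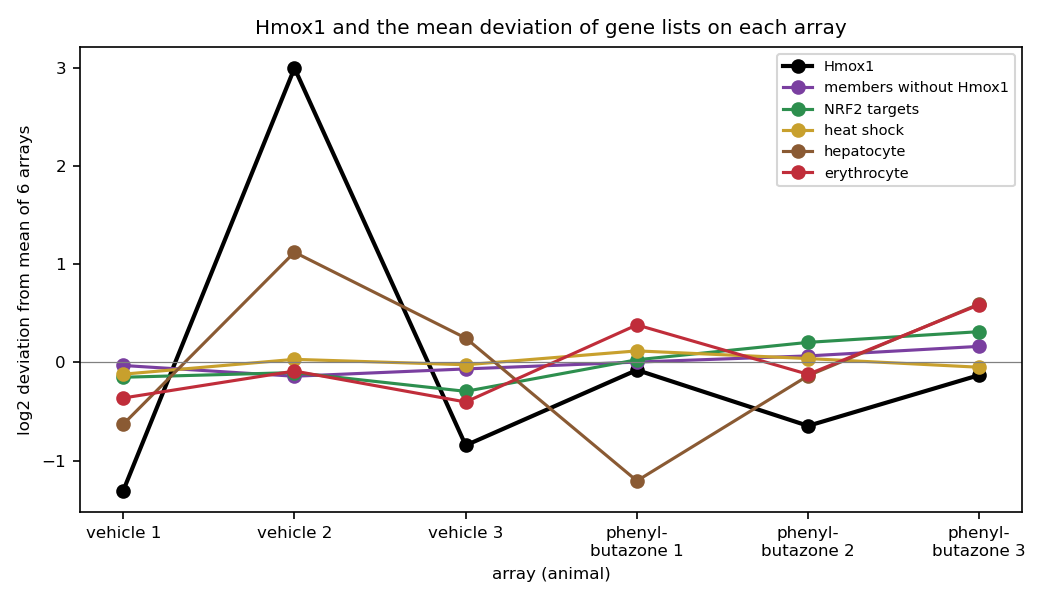
Deviation from the mean of the 6 arrays (y axis, log2) on each array (x axis) for Hmox1 and, as the mean over their measured genes, for 5 lists. Hmox1 and the mean of the hepatocyte list (1.12, raised by genes dim on some arrays) are highest on vehicle 2. There the other genes of the set, the NRF2 targets and the heat shock genes lie between -0.14 and 0.03.

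The genes most like Hmox1 across the 6 arrays were ranked by Pearson's r among 11497 others with a symbol. The 10 highest were Slc2a4 (0.99), which encodes the insulin-responsive glucose transporter, Vmo1 (0.98), Cenpt, Spata20, Ndc80, Aadacl3 and Fbxo21 (each 0.97), and Porcn, Phlpp2 and Msmp (each 0.96). These r describe 6 points that share 2 groups and 2 slides, and they are led by 1 array: without vehicle 2 they lay between 0.45 and 0.94. Slc2a4 stood at -1.06 on vehicle 2 and -2.91 to -2.52 elsewhere, and Phlpp2 at -2.00 against -4.84 to -3.98. Others varied little and were alike in r only. Over the 6 arrays the range was 0.14 log2 units for Fbxo21, 0.15 for Porcn and 0.35 for Msmp, against 4.31 for Hmox1. None of the other 9 genes of heme turnover and iron was among the 10.

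Hmox2, the constitutive heme oxygenase, stood at 4.14, 4.02 and 3.92 on vehicle arrays 1, 2 and 3 by its probe of highest mean level. On phenylbutazone arrays 1, 2 and 3 it stood at 4.32, 4.19 and 4.21, all above the vehicle values. The difference was 0.21 ± 0.10, and 0.32 ± 0.11 on slide 2 alone. The other Hmox2 probe did not show this: it stood at -0.17 ± 0.12, with overlapping groups. Beside the first start site of Hmox2 shown above, the RefSeq table holds a second, and which transcripts each probe reads was not analysed here.

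Blvrb, which encodes biliverdin reductase B, also known as flavin reductase and abundant in red cells, was higher in phenylbutazone by all 3 of its probes. The first stood at 2.90, 2.71 and 2.89 in the vehicle rats and at 3.22, 3.26 and 3.35 in the phenylbutazone rats. The groups did not overlap at any of the 3 probes, with differences of 0.44 ± 0.10, 0.45 ± 0.11 and 0.43 ± 0.11, the first being 1.36-fold. On slide 2 alone the first probe gave 0.39 ± 0.11, and over 17 alternatives in the processing Blvrb stayed between 0.38 and 0.49.

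Markers of red cells were measured beside Blvrb. At the probe of highest mean level all 13 measured erythrocyte genes had a difference above 0, and their median difference was 0.53. So had 15806 of all 29938 genes and 6961 of the 12155 with a symbol. A second Slc4a1 probe stood at -0.38, without overlap on the lower side. The globin genes Hba-a1, Hba-a3, Hbb, Hbb-b1 and Hbb-bs were each highest on phenylbutazone 3 and are not independent of each other. Of the 13, 2 had groups that did not overlap, both higher, where 12.1% of all genes did so. In the vehicle rats their levels summed to 685, 954 and 714 times the 75th percentile (replicates 1 to 3 in turn), and in the phenylbutazone rats to 1193, 822 and 1347. Rhag and Hbe1 were well above background on 0 arrays. Phenylbutazone 2 lay below vehicle 2 in this sum, whereas in Blvrb it was 3.26 against 2.71. The part of red cell RNA in the Blvrb difference was not tested, and in bulk tissue a change in the number of cells of a type and a change in RNA per cell cannot be told apart.

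Blvra, which encodes biliverdin reductase A, the main bilirubin-forming enzyme in adults, did not share the pattern. It stood at 1.34, 1.81 and 1.57 on the vehicle arrays and at 1.46, 1.60 and 2.21 on the phenylbutazone arrays, so that only phenylbutazone 3 lay above the vehicle range. The difference was 0.19 ± 0.23, and without phenylbutazone 3 it was -0.042 ± 0.18.

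Alas1, which encodes the rate-limiting enzyme of heme synthesis outside red cells and is known to be induced by many drugs in liver, stood at 4.99, 4.57 and 4.69 on the vehicle arrays. On phenylbutazone arrays 1, 2 and 3 it stood at 4.81, 5.35 and 5.22. Phenylbutazone 2 and 3 lay above all vehicle arrays and phenylbutazone 1 lay within them. The difference was 0.38 ± 0.18, and 0.44 ± 0.26 on slide 2 alone.

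Fech, which encodes ferrochelatase, stood at 0.46, 0.44 and 0.98 on the vehicle arrays and at 0.69, 0.61 and 0.66 on the phenylbutazone arrays. The phenylbutazone values lay between those of vehicle 1 and 2 and that of vehicle 3. The difference was 0.027 ± 0.17 over all arrays, 0.20 without vehicle 3 and -0.33 ± 0.097 on slide 2 alone. The slide 2 SE leaves out the spread between vehicle rats, whose SD was 0.31. The difference was also below 0 without vehicle 1 (-0.056) and without vehicle 2 (-0.066).

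The ferritin probes were the brightest of the set, with levels of 6.11 to 8.82 for the 4 probes of Fth1 and 7.08 to 9.31 for the 5 of Ftl1. Ferritin genes have many processed pseudogenes, so their probes may read more than 1 gene. The Fth1 probe of highest mean level stood at 8.74, 8.63 and 8.62 on the vehicle arrays and 8.63, 8.82 and 8.81 on the phenylbutazone arrays, a difference of 0.091 ± 0.10 with overlapping groups. The other 3 Fth1 probes had groups that did not overlap, but in opposite directions: 0.12 ± 0.087 for 1 of them and -0.13 ± 0.098 and -0.30 ± 0.10 for the other two. No direction can be given for Fth1.

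Ftl1, the light chain, was above 0 by all 5 probes, at 0.13 to 0.26, and the groups did not overlap at 1 of them. Its probe of highest mean level stood at 8.95 and 8.92 on vehicle 1 and 2, at 9.25 on vehicle 3 and at 9.31, 9.26 and 9.21 on the phenylbutazone arrays. Vehicle 3, the vehicle array on the slide of the phenylbutazone arrays, thus lay among the phenylbutazone values. The difference was 0.22 ± 0.12 over all arrays and 0.0088 ± 0.10 on slide 2 alone, so that treatment and slide cannot be told apart here.

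Tfrc, through which cells take up transferrin-bound iron, stood at 1.99, 1.40 and 1.50 on the vehicle arrays and at 1.19, 1.70 and 1.95 on the phenylbutazone arrays. The groups overlapped widely and the difference was -0.017 ± 0.25. Its other probes stood at -0.069 ± 0.24 and 0.16 ± 0.26.

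Slc40a1, the only known iron exporter of mammalian cells, stood at 2.15, 2.18 and 1.94 on the vehicle arrays and at 2.34, 1.76 and 1.79 on the phenylbutazone arrays. Phenylbutazone 2 and 3 lay below all vehicle arrays and phenylbutazone 1 above them. All 3 probes were below 0, at -0.13 ± 0.18, -0.17 ± 0.12 and -0.22 ± 0.21, and the first was 0.023 ± 0.29 on slide 2 alone.

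**Figure D3:**
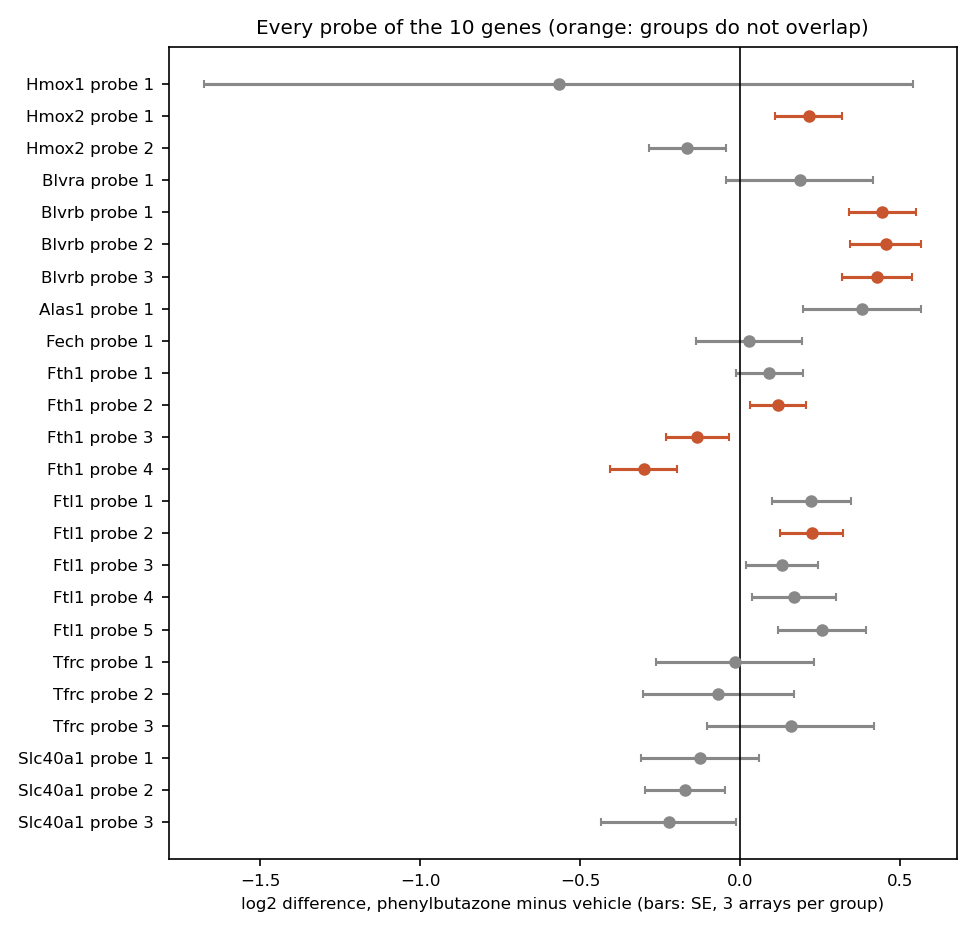
Difference between phenylbutazone and vehicle (x axis, log2, bars SE, 3 arrays per group) for the 24 kept probes of the 10 genes. Probes are numbered within a gene from the highest mean level, and orange ones have groups that do not overlap. All 3 Blvrb probes lie between 0.43 and 0.45, those of Hmox2, Fth1 and Tfrc fall on both sides of 0, and Hmox1 has the widest bar.

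Of the 24 probes, 8 had groups that did not overlap, 6 higher and 2 lower in phenylbutazone, where 20.3% of all 41006 probes tested did not overlap. Several probes of one gene are not independent of each other. The spread within a group was also uneven over the set. Between the vehicle arrays the range was 4.31 log2 units for Hmox1 and 0.12 to 0.59 for the other 9 genes, and between the phenylbutazone arrays it was 0.084 (Fech) to 0.77 (Tfrc).

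The rest of the pathway was read from 5 lists of 86 other genes, of which 75 were tested. Of these, 0 passed in either direction (limma, Benjamini-Hochberg adjusted p over all genes), with 10 higher and 2 lower at an unadjusted p under 0.05, or 12 of 75 where the share over all genes was 12.2%. The median difference was 0.056 against 0.015 over all genes and 0.039 over the 12155 genes with a symbol, as all list genes have. Of the 75, 47 were higher and 28 lower, and of the genes with a symbol 6961 and 5194. The groups did not overlap in 11 higher and 5 lower genes, 16 of 75, where 21.5% of all genes did not overlap. Among those with a symbol 1794 higher and 953 lower did not. Adjusted p values of single genes below are limma's over all genes.

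In heme synthesis 0 of the 14 tested genes passed, with 9 above and 5 below 0 and a median of 0.067. Alad, which encodes the second enzyme of the chain, stood at 6.88, 6.62 and 6.40 on the vehicle arrays and at 7.02, 7.13 and 7.20 on the phenylbutazone arrays. All phenylbutazone values were above the vehicle values, and the difference was 0.48 ± 0.15 (adjusted p = 0.316), or 0.71 ± 0.12 on slide 2 alone. Urod, which encodes uroporphyrinogen decarboxylase, stood at 5.02, 4.97 and 4.72 on the vehicle arrays and at 5.38, 5.18 and 5.27 on the phenylbutazone arrays, also without overlap, at 0.38 ± 0.12 (adjusted p = 0.346). Its second probe stood at 0.21, also without overlap. Alas2, the red cell form of Alas1 and also an erythrocyte marker, stood at 0.48 ± 0.34 with overlapping groups.

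In heme transport and scavenging 0 of the 12 tested genes passed, with a median of 0.10. Abcg2, an exporter of porphyrins and drugs, stood at 3.40 to 3.46 on the vehicle arrays and 3.57 to 3.75 on the phenylbutazone arrays, a difference of 0.25 ± 0.096, and its second probe at 0.22 with overlapping groups. Pgrmc1 and Pgrmc2, which encode heme-binding membrane proteins, stood at 0.20 ± 0.091 and 0.27 ± 0.12 without overlap. The other 3 Pgrmc1 probes stood at 0.10 to 0.17 with overlapping groups, and the other 2 Pgrmc2 probes at 0.0074 and -0.10. Hpx, the gene of the heme scavenger hemopexin, was lower on all phenylbutazone arrays, at -0.76 ± 0.34, but it was dim and well above background on only 2 of the 3. Slc48a1, a lysosomal heme exporter gene, stood at -0.14 ± 0.20, Bach1 at 0.19 ± 0.11 and Hp, the gene of the hemoglobin scavenger haptoglobin, at 0.061 ± 0.42.

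In iron uptake and trafficking 0 of the 20 tested genes passed, with 13 above and 7 below 0 and a median of 0.13. Lcn2, which encodes the siderophore-binding lipocalin known as a kidney injury marker, stood at -1.63, -1.63 and -1.54 on the vehicle arrays and at -0.47, -1.17 and -0.34 on the phenylbutazone arrays. This was the largest difference of the list, 0.94 ± 0.22 (adjusted p = 0.275). The metalloreductase genes Steap2 (0.45 ± 0.13), Steap1 (0.52 ± 0.20) and Cybrd1 (0.46 ± 0.17) were above the vehicle range on all phenylbutazone arrays. A second Steap2 probe stood at 0.43 without overlap, while 2 further ones stood at 0.10 and 0.15. The second Cybrd1 probe stood at 0.44 with overlapping groups. Slc39a14, which encodes a transporter of iron outside transferrin, was lower: it stood at -1.96, -2.20 and -2.01 on the vehicle arrays and at -2.97, -2.38 and -2.78 on the phenylbutazone arrays, a difference of -0.66 ± 0.17 (adjusted p = 0.298). Of its 4 probes, 3 did not overlap on the lower side and 1 stood at 0.11.

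Slc11a2, the gene of the ferrous iron transporter DMT1, stood at 0.31 ± 0.14 with overlapping groups, and its other probes at 0.28 without overlap and -0.031 with it. Ncoa4, the receptor gene for autophagy of ferritin, stood at 0.26 ± 0.12 and at 0.083 ± 0.13 on slide 2 alone. Lrp2, the endocytic receptor megalin of the proximal tubule, stood at -0.19 ± 0.092 without overlap, whereas its second probe stood at 0.0095.

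In iron regulation and oxidation 0 of the 13 tested genes passed, with a median of -0.0042. Heph, which encodes the ferroxidase hephaestin that works with ferroportin, stood at 0.41, 0.23 and 0.24 on the vehicle arrays and at 0.59, 0.70 and 0.59 on the phenylbutazone arrays. All phenylbutazone values were higher, at 0.34 ± 0.10 (adjusted p = 0.319). Cp, the related ferroxidase ceruloplasmin, stood at 0.33 ± 0.17 with overlapping groups, and all 3 of its probes were above 0. Aco1 and Ireb2, which encode the iron regulatory proteins, stood at -0.16 ± 0.19 and -0.019 ± 0.15.

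The hepcidin regulators Hjv and Tmprss6 stood lower without overlap. Hjv stood at -3.31, -3.72 and -1.51 on the vehicle arrays and at -4.03, -3.91 and -4.26 on the phenylbutazone arrays, so that vehicle 3 stood apart. Its difference was -1.22 ± 0.56, -0.55 without vehicle 3 and -2.56 ± 0.18 on slide 2 alone, and its second probe stood at -0.93 with overlapping groups. The vehicle SD of the first Hjv probe was 1.18, a spread that the slide 2 SE leaves out. Tmprss6 stood at -0.36 ± 0.14. In iron-sulfur cluster assembly 0 of the 16 tested genes passed, with a median of 0.039. Fdx2, a mitochondrial ferredoxin gene, stood at 0.32 ± 0.11 without overlap and its second probe at 0.16, also without overlap.

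**Figure D4:**
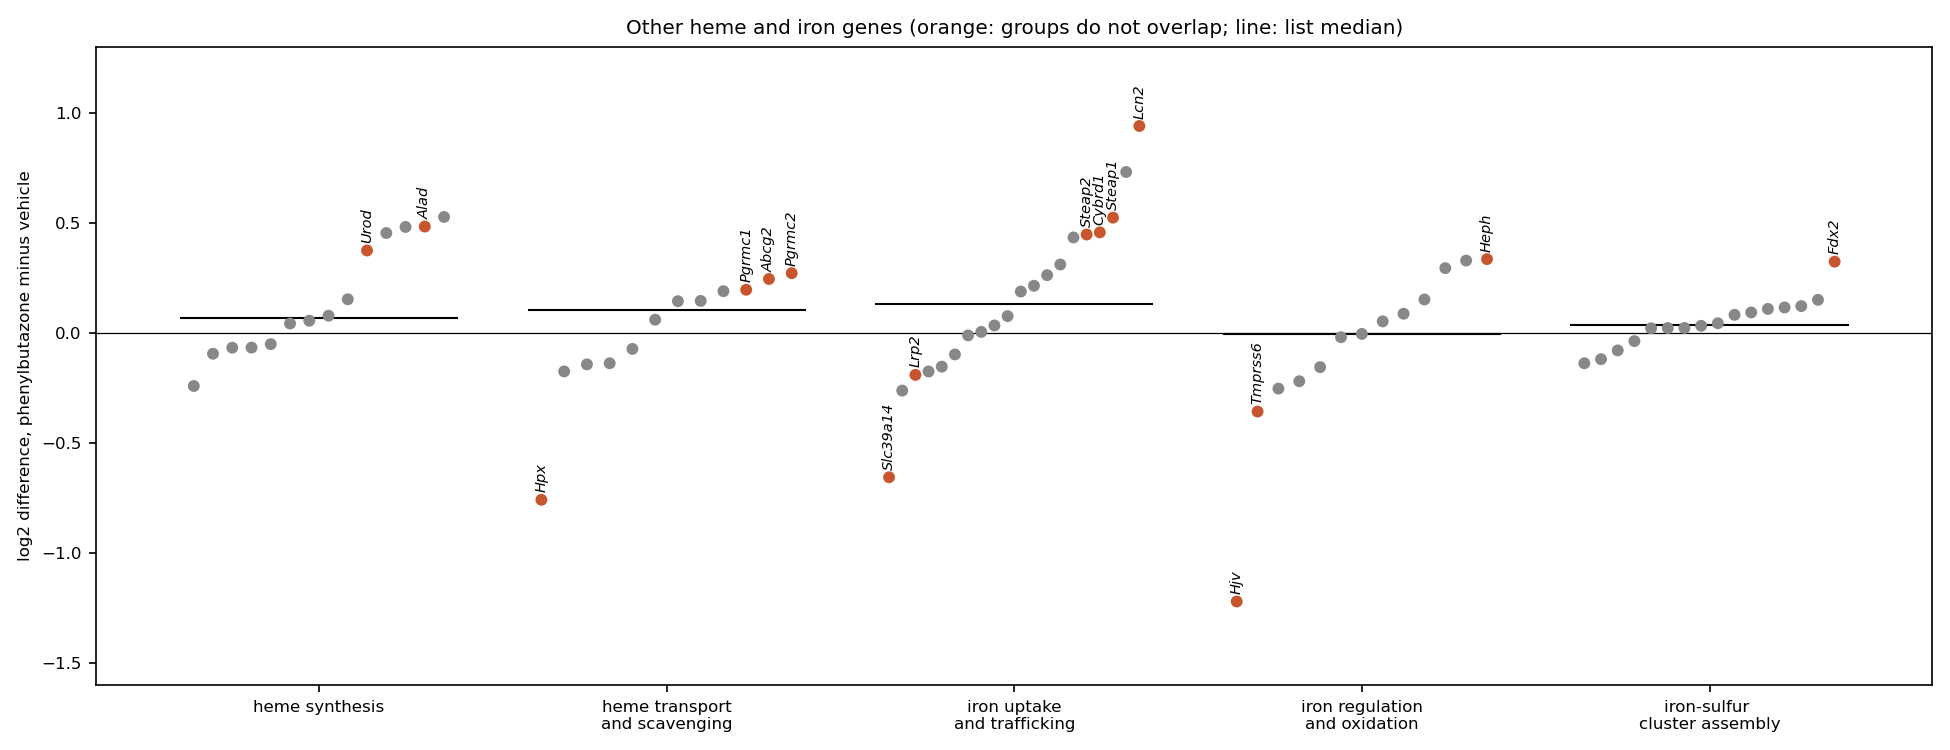
Difference between phenylbutazone and vehicle (y axis, log2) of 75 other heme and iron genes in 5 lists, ordered within a list by the difference, with the list median as a line; named orange genes have groups that do not overlap. The medians lie between -0.0042 and 0.13, and Lcn2 and Hjv are the outermost genes at 0.94 and -1.22.

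Of the genes often induced together with Hmox1, 57 of 64 were tested in 4 stress lists and 0 passed (limma). At an unadjusted p under 0.05, 10 were higher and 0 lower. Over all 29938 genes 1788 were higher and 1869 lower at that p, or 12.2% in both directions together. The NRF2 targets had 16 of 17 genes above 0, a median of 0.29, 8 genes higher and 1 lower without overlap, where the shares over all genes were 12.1% and 9.39%. Of the 12155 genes with a symbol, 6961 were above 0, the median was 0.039, and 1794 were higher and 953 lower without overlap. The widest differences were those of Gstp1 (1.16 ± 0.23) and Gstm1 (0.96 ± 0.20), glutathione transferase genes with close paralogs, and of Abcc4 (0.97 ± 0.15), an exporter gene, with adjusted p of 0.234, 0.241 and 0.179. Their groups did not overlap at any of their probes. With overlapping groups, Nqo1 stood at 0.29 ± 0.20, Txnrd1 at 0.28 ± 0.25, Srxn1 at 0.0029 ± 0.17 and Gclc at 0.17 ± 0.83. Gclc varied widely inside both groups, from 3.80 to 5.90 in vehicle and from 3.81 to 6.46 in phenylbutazone, and on vehicle 2 it stood at 5.90, below phenylbutazone 3. Heat shock genes had a median of 0.055, genes of metal and unfolded protein stress 0.12 and immediate early genes 0.13.

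The 6 arrays correlated with each other at r of 0.982 to 0.990 over the genes tested, with 65.2% to 68.4% of probes well above background per array. The percentile used for scaling ranged from 891 to 1003 in processed intensity. All 15 proximal tubule markers were well above background on all 6 arrays, with a summed level of 2412 to 2566 in vehicle and 2272 to 2706 in phenylbutazone. The lowest of these sums was that of phenylbutazone 1, where the marker Kap stood at 6.32 against 8.14 to 8.92 elsewhere. Other markers went both ways on this array: Slc7a13 was lowest there at 1.46, and Slc34a1 highest at 8.38 against 8.17 to 8.29 elsewhere. The low sum thus does not stand for all markers. In Alas1, Tfrc and Slc40a1 phenylbutazone 1 also stood apart from phenylbutazone 2 and 3. The part of tubule content in the Alas1, Tfrc and Slc40a1 values was not tested.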

How the data were processed

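Images were read with Agilent Feature Extraction 10.7, per the submitters' processing notes, and the array design names the build rn4, per the file headers. The deposited scanner files hold the processed intensity of each spot on a linear scale, not normalized between arrays, together with the median spot and background intensity. The authors' deposited value table holds a ratio, each array's processed intensity divided by a constant near its 75th percentile, as its values show against the scanner files.

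The 61537 non-control probes were log2-transformed, and the 75th percentile of the array was taken off. Of these, 40 probes with an outlier flag were left out, and 41006 remained that 3 or more of the 6 arrays flagged as well above background. No spot was saturated. Accessions were matched to RefSeq symbols (GRCr8, names only), which named 28206 probes (45.8%), and a gene was represented by its probe of highest mean level. The group difference came from limma 3.58.1 (lmFit, then eBayes; R 4.3.3), a two-sided test with Benjamini-Hochberg adjustment over 29938 genes. The fit was tested on simulated data. The number of arrays limits the precision.

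The 10 genes and all lists were chosen with earlier results of these data known. Named genes are the 10, a fixed choice of 22 pathway and NRF2 genes (20 tested; Flvcr1 was not matched and Gclm was too dim; 1 is not reported here), up to 10 others of smallest p among those without overlap, and the 10 most like Hmox1. Akr1b8, Sptbn4, Scgb1c1, Fxyd3, Jun, Gstp1, Gstm1 and Abcc4, and single-array values, were chosen after their values were seen. So were the markers Alb, Ttr, Cyp2e1, Apob, Fgb, Ahsg, Slc4a1, Kap, Slc7a13, Slc34a1 and the named globin genes. Alternatives were the scaling, normexp with quantile normalization, quantile normalization, the deposited ratio, other dim-probe filters, probes not merged into genes, a fixed or a random block for slide, a fit within slide 2, a block for replicate number, and fits that each lack 1 replicate. For normexp the median spot intensity was the input.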

Additional observations from a re-analysis of the deposited data

How the results depend on the processing

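The precision is limited by 3 arrays per group, and slide 1 holds vehicle arrays only. Over all genes limma called 0, and 2 with normexp and quantile normalization, 1 with quantile normalization and 1 with slide as a random block. Leaving out each replicate gave 0 to 814 called genes, the highest without vehicle replicate 3, a setting in which slide and treatment are the same split. Of the 10 genes and of the other heme and iron genes 0 were called in any of the 17 alternatives. In the stress lists leaving out each replicate gave 0 to 1, the 1 being Abcc4 without vehicle replicate 3. The median difference of the 10 genes, 0.14, was 0.059 with normexp, 0.075 with quantile normalization, 0.026 with every probe on its own and 0.043 to 0.19 over the leave-one-out settings. Over all alternatives Blvrb (0.38 to 0.49), Alas1 (0.27 to 0.54), Hmox2 (0.024 to 0.32) and Ftl1 (0.0088 to 0.33) kept a difference above 0. The lowest value of Hmox2 came with every probe on its own and that of Ftl1 on slide 2 alone, both near 0. Hmox1 kept its sign in 13 of 17, Fech in 12, Tfrc in 9, Slc40a1 in 15, and Blvra and Fth1 in 16. Among the other named genes the limma adjusted p lay between 0.0594 and 0.999 over the alternatives. The replicate block called 0 genes. The correlation of deviations between arrays of the same number was -0.030, 0.011 and -0.074. These values show no pairing of animals by number, but 3 arrays per group cannot exclude one.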
